A study of Mus musculus with 26 samples.

Results

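The 7 lipocalin genes *Lcn2*, *Lcn5*, *Lcn6*, *Lcn8*, *Lcn9*, *Lcn10* and *Lcn12* were taken by gene symbol from count tables of 23337 genes, and each of the 7 was present. They were measured by RNA-sequencing in 26 samples of 3-month-old male mice on a C57Bl/6N; 129 hybrid background. Samples came from the initial segment of the epididymis (IS) and from the caput, with 5 ArKI and 5 WT samples of each, and from the testis, with 3 ArKI and 3 WT samples. ArKI is a germline knock-in in which the SUMO acceptor lysines of the androgen receptor are replaced, so every cell of the animal carries the altered receptor, and WT mice were littermates. The IS and caput libraries belong to sequencing batch 2 and the testis libraries to batch 1, so that testis and sequencing run cannot be told apart.

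Lipocalins are small, mostly secreted proteins with a barrel-shaped fold whose cavity holds a hydrophobic ligand. *Lcn5* encodes the epididymal retinoic acid-binding protein, and *Lcn8*, *Lcn9*, *Lcn10*, *Lcn6* and *Lcn12* encode further epididymal lipocalins that are secreted by the epithelium into the lumen where sperm mature. *Lcn2* encodes neutrophil gelatinase-associated lipocalin, which binds bacterial siderophores and is made by many epithelia during inflammation. The IS is the first part of the epididymis, joined to the testis by the efferent ducts, and the caput follows it.

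On mouse build GRCm38, 6 of the 7 genes lie on chromosome 2 within 334702 bases, and *Lcn2* lies 6559090 bases beyond the last of them. *Lcn12* (chr2:25490845-25494061, minus strand) comes first, and *Lcn8* (chr2:25653118-25656217, plus strand) is separated from *Lcn5* (chr2:25657932-25662230, plus strand) by only 1714 bases. *Lcn6* (chr2:25676638-25681608) and *Lcn10* (chr2:25682726-25686081), both on the plus strand, are 1117 bases apart, and *Lcn9* (chr2:25823088-25825546, plus strand) follows. *Lcn2* spans chr2:32384637-32387739 on the minus strand. None of the 7 overlaps another RefSeq gene, so no read of these genes had to be divided between annotated neighbours.

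The sequences before the annotated starts of *Lcn8* and *Lcn5*, of *Lcn6* and *Lcn10*, and of *Lcn2* are shown because the members of the first 2 pairs are close neighbours with different transcript patterns, and because *Lcn2* was the only member that changed in the testis. They were taken from RefSeq promoter windows of build GRCm38.p6, in which all 7 genes were found, and run 5′ to 3′ on the strand of the gene. For *Lcn5* and *Lcn6* the sequence stops before the outermost RefSeq start of the gene. Capitals mark AGAACA (or TGTTCT), the core hexamer of the sites bound by the androgen and glucocorticoid receptors, AGGAAG (or CTTCCT), a site of PEA3-type ETS factors, and TATAAA.
Lcn8, chr2:25652868-25653117, plus strand: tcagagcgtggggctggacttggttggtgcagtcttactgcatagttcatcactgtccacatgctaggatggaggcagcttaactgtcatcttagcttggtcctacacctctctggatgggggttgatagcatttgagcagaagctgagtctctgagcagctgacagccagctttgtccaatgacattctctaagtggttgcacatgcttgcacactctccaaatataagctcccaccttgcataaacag
Lcn5, chr2:25657702-25657931, plus strand: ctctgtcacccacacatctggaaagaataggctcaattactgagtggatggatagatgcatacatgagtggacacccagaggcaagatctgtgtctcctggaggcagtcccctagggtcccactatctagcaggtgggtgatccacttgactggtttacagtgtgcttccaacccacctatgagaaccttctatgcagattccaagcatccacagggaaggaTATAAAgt
Lcn6, chr2:25676536-25676637, plus strand: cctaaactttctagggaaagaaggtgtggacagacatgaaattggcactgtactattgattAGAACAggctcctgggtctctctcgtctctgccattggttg
Lcn10, chr2:25682476-25682725, plus strand: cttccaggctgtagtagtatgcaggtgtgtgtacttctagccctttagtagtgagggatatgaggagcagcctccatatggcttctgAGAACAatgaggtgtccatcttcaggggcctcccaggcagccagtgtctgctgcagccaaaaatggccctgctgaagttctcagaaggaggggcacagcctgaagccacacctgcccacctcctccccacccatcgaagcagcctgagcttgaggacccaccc
Lcn2, chr2:32387740-32387989, minus strand: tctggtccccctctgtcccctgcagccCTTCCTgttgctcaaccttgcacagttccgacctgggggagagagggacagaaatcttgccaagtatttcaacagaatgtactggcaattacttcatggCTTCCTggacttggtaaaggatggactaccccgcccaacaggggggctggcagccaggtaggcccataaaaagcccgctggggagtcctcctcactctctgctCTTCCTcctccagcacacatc
The hexamer AGAACA, read on both strands, occurred in the 250-base promoter window of 4 of the 7 genes (*Lcn6*, *Lcn9*, *Lcn10* and *Lcn12*), against 16.1% of 32851 promoter windows of the same length. In *Lcn9* the match lies 45 bases before the start that the window uses, which is downstream of the outermost start of the gene. AGGAAG occurred 3 times before *Lcn2* and in no other member, and was present in 29.5% of all windows. TATAAA occurred before *Lcn5* alone among the 7 (12.4% of all windows), and the forkhead motif TGTTTAC in none of them (3.2% of all windows). No match overlapped a match of another motif in these 7 windows. These are matches of letters and were not tested as binding sites.

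IS libraries held 5829074 to 9770625 counts, caput libraries 4125768 to 11913469 and testis libraries 14077013 to 21376604, and no libraries of a group agreed within sampling noise. The tissue labels were checked against markers. Of 7 IS markers, *Ros1*, *Rnase10*, *Adam28*, *Etv4* and *Etv5* were higher in the IS than in the caput of WT mice, whereas *Ggt1* and *Spink12* were lower. Caput principal cell markers separated the segments less: of 6, 3 were lower in the IS of WT mice and 1 was higher (*Crisp1*). Their sums overlapped, at 58413 to 67032 CPM in the IS and 63985 to 82669 CPM in the caput of WT mice. The summed spermatid and sperm markers lay between 11915 and 15713 CPM (the count scaled to the normalised library size) in the testis and at or below 250.01 CPM in the epididymis. In the caput, the summed IS markers were highest in WT replicates 4 and 3 (3047 and 2862 CPM) and in ArKI replicate 3 (2209 CPM), against 1465 to 2153 CPM in the other 7 libraries. Much of this sum came from *Spink12* and *Ggt1* (means of 746 and 441 CPM in the WT caput), which were lower in the IS. *Rnase10* alone was highest in the same 3 libraries, at 1382, 1184 and 651 CPM, against 155 to 509 CPM in the others. Results of members that were high in these 3 libraries are therefore also given without the 2 WT libraries and without all 3, alternatives chosen after the data were seen.

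By the segment in which each was higher, the 7 genes fell into an IS set, a caput set and 1 gene close to equal in both (*Lcn6*). *Lcn2* was higher in the IS but still ranked 18th of 18507 genes in the caput of WT mice. Levels between genes are compared as RPKM (CPM divided by the length of the exons in kilobases), scaled over all 26 samples. In the IS of WT mice *Lcn8* was second among 18507 genes, at a mean of 19735 RPKM, followed among the members by *Lcn9* (11431 RPKM), *Lcn2* (8212 RPKM), *Lcn10* (1970 RPKM) and *Lcn6* (523 RPKM). *Lcn12* and *Lcn5* stood at 118 and 89.2 RPKM there. In the caput of WT mice *Lcn5* took the second place of all genes, at 16345 RPKM, and was followed by *Lcn2* (2644 RPKM), *Lcn12* (1020 RPKM), *Lcn6* (779 RPKM), *Lcn8* (749 RPKM), *Lcn9* (538 RPKM) and *Lcn10* (458 RPKM). Together the 7 genes took 3.44% ± 0.092 (SD, n = 5) of all counts in the IS of WT mice and 2.91% ± 0.16 in ArKI mice. In the caput they took 2.05% ± 0.15 and 1.80% ± 0.19.

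**Figure D1:**
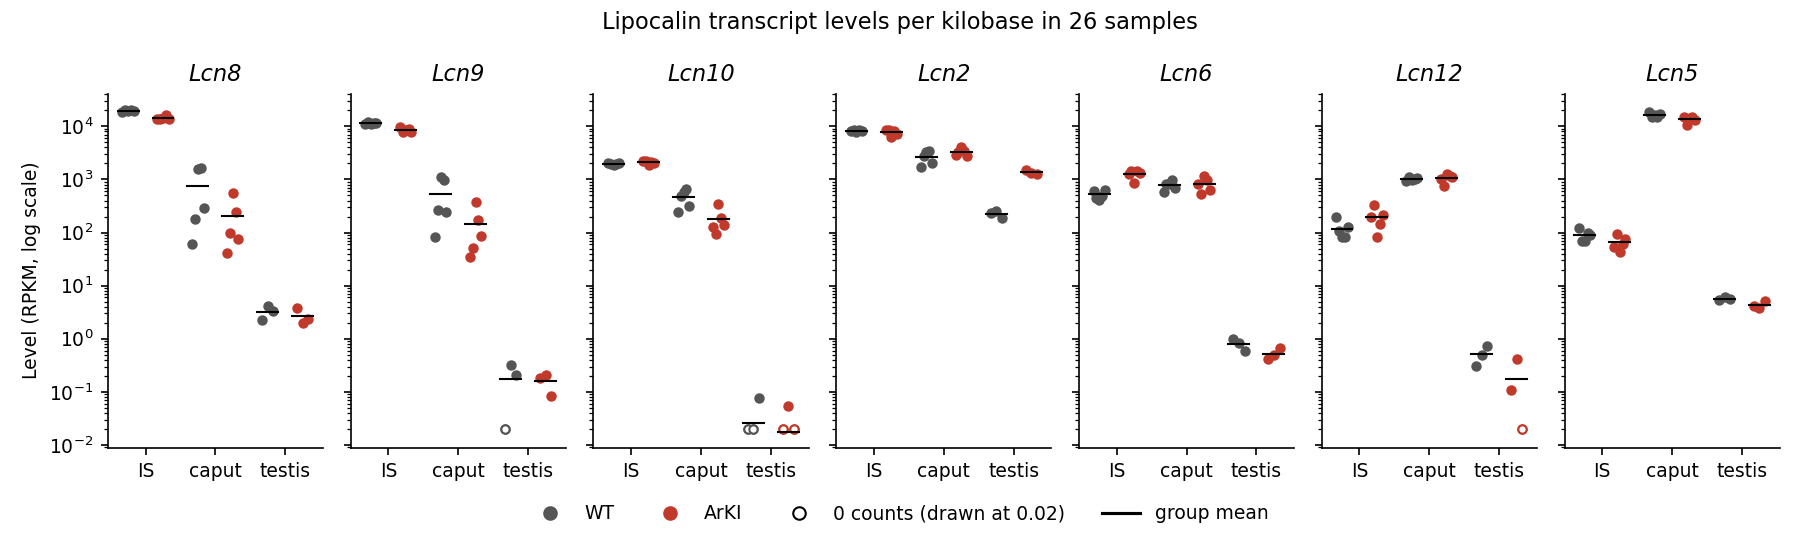
Level of each lipocalin in each of 26 samples (RPKM, log axis) by tissue, with WT in grey and ArKI in red and a line at the group mean. Filled points are samples with at least 1 count and open points are samples with 0 counts, drawn near the bottom of the axis; *Lcn8* and *Lcn5* reach the highest levels, in the IS and in the caput respectively, and all members but *Lcn2* are below 7 RPKM in the testis.

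The order of the groups by mean RPKM differed from gene to gene. *Lcn8* and *Lcn9* ran from IS WT through IS ArKI, caput WT and caput ArKI to testis WT and testis ArKI, and the neighbours whose ranges overlapped were both caput groups and both testis groups. *Lcn10* had the same order except that IS ArKI (2093 RPKM) stood above IS WT (1970 RPKM), with overlapping ranges. *Lcn5* ran from caput to IS to testis, WT above ArKI each time, and its ranges overlapped between genotypes in the caput and in the IS but not in the testis. For *Lcn6* the order ran from IS ArKI (1270 RPKM) through caput ArKI and caput WT to IS WT, each overlapping with the next, while IS WT and testis WT did not overlap. *Lcn2* had the highest testis level of the 7, where ArKI (1377 RPKM) and WT (227 RPKM) did not overlap.

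Between segments, each lipocalin differed, although *Lcn6* did not pass under every alternative, as given below. In WT mice 7 of 7 passed the test (4 higher and 3 lower in the IS), where 69.4% of 14329 genes tested did so (35% higher and 34.4% lower). In ArKI mice 7 of 7 passed (5 higher and 2 lower), where 66.2% of all genes did (33.2% higher and 33% lower). A difference was called at a Benjamini-Hochberg adjusted p below 0.05 over all genes tested, by the quasi-likelihood test of edgeR. With so many genes differing between segments, the share of members that passed is described by their sizes rather than by their number.

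*Lcn8* was 26.3-fold higher in the IS than in the caput of WT mice (log2 difference 4.72 ± 0.86 SE) and 71.1-fold higher in ArKI mice (6.15 ± 0.92). *Lcn9* was 21.2-fold and 60.6-fold higher, and *Lcn10* 4.29-fold and 11.7-fold higher. Without the 3 caput libraries with the highest IS marker sums, the log2 difference of *Lcn8* was 6.78 ± 0.66 in WT and 6.95 ± 0.58 in ArKI mice. That of *Lcn9* was then 5.85 ± 0.55 and 6.63 ± 0.50, and that of *Lcn10* 2.48 ± 0.22 and 3.93 ± 0.21. Within each genotype *Lcn8*, *Lcn9* and *Lcn10* were highest in the libraries left out, so larger differences follow from that choice. The WT and ArKI values of *Lcn8* lay closer together after more WT than ArKI libraries were left out, and nothing is read from this. *Lcn2* was 3.10-fold higher in the IS of WT mice and 2.35-fold higher in ArKI mice. In the other direction, the IS minus caput difference of *Lcn5* was -7.52 ± 0.25 on the log2 scale in WT mice and -7.70 ± 0.25 in ArKI mice. Each WT IS sample held between 0.412% and 0.728% of the mean caput level of *Lcn5*. The difference of *Lcn12* was -3.12 ± 0.31 in WT and -2.45 ± 0.30 in ArKI mice. The 2 genes with the largest opposite differences, *Lcn8* and *Lcn5*, are thus the pair separated by 1714 bases.

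*Lcn6* was the member closest to equal between the segments, and the sign of its difference depended on genotype. In WT mice its 5 IS samples lay between 322 and 498 CPM and its 5 caput samples between 457 and 775 CPM, an IS minus caput difference of -0.58 ± 0.20 on the log2 scale (adjusted p = 0.018). In ArKI mice the IS samples lay between 666 and 1140 CPM and the caput samples between 418 and 877 CPM, a difference of 0.63 ± 0.20 (adjusted p = 0.011). In both genotypes the ranges of the segments overlapped. Without WT caput replicates 3 and 4, the WT difference was -0.42 (adjusted p = 0.12), and without ArKI caput replicate 3 as well the differences were -0.44 in WT (adjusted p = 0.085) and 0.76 in ArKI mice (adjusted p = 0.0042). With samples of the same number taken as 1 mouse (the replicate block), neither difference passed (adjusted p = 0.082 in WT and 0.058 in ArKI).

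**Figure D2:**
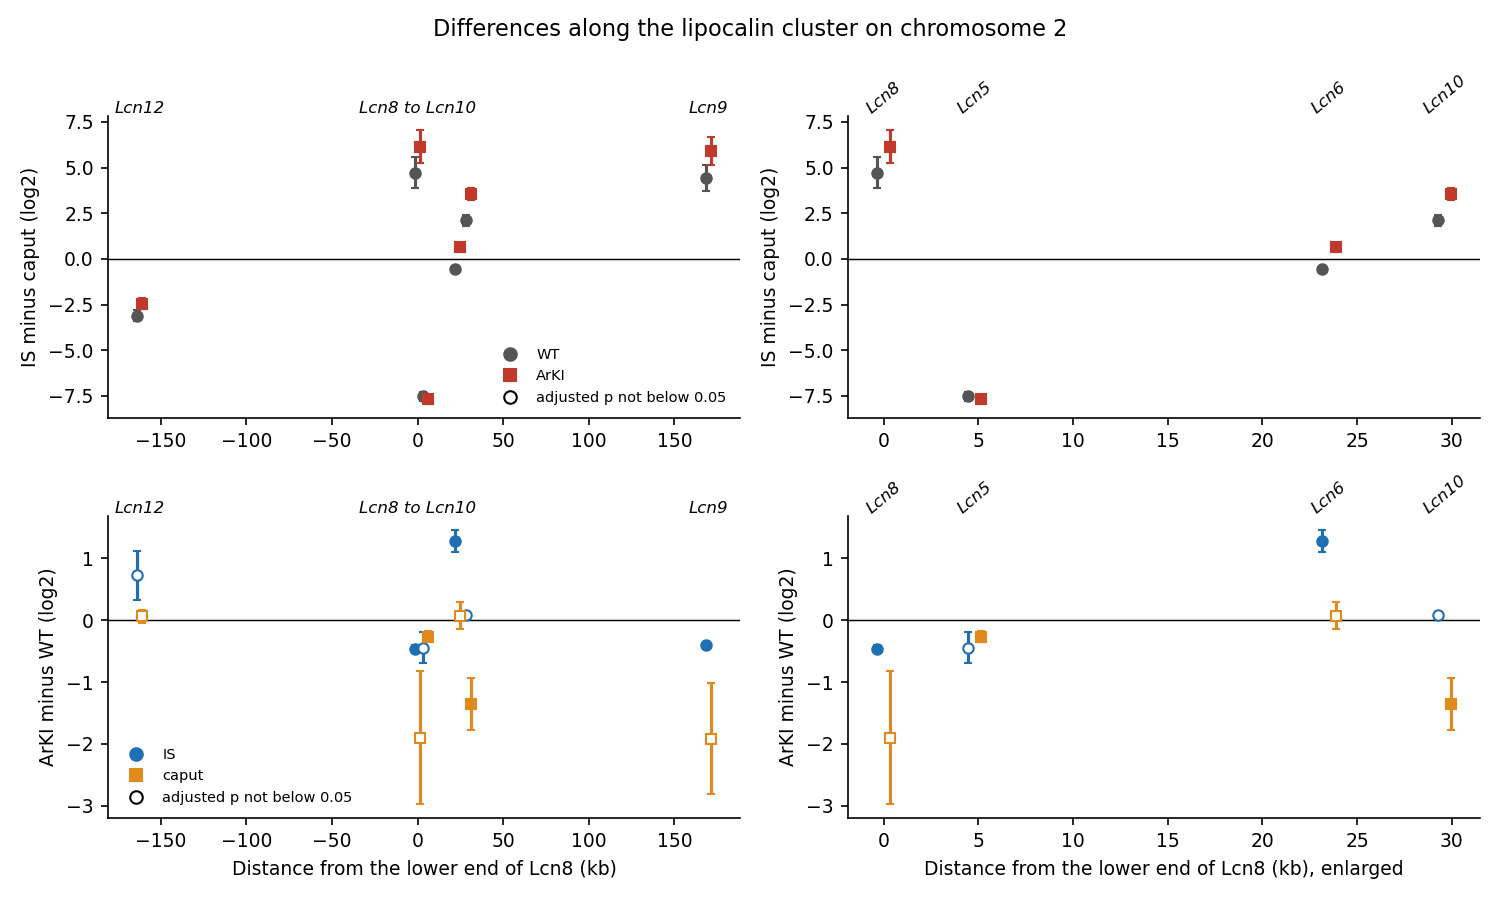
Differences along the lipocalin cluster, with each gene placed by the distance of its lower end from that of *Lcn8* (kb; right panels enlarge the middle). The upper panels give the IS minus caput difference (log2) in WT and ArKI mice and the lower panels the ArKI minus WT difference (log2) in the IS and caput, with bars of ± SE; open points had an adjusted p not below 0.05. *Lcn8* (4.72 in WT) and *Lcn5* (-7.52) sit side by side at opposite ends of the scale, and *Lcn6* is the only member plotted that rose in the IS (1.28).

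In the IS, 3 of the 7 lipocalins differed between ArKI and WT mice: *Lcn6* rose, and *Lcn8* and *Lcn9* fell. Of 13434 genes tested in the IS, 29.6% passed (15% higher and 14.6% lower). The same 3 members had WT and ArKI samples that did not overlap, as had 20.1% of all genes. *Lcn6* was at 474, 349, 322, 376 and 498 CPM in the WT samples and at 952, 1140, 666, 1100 and 1036 CPM in the ArKI samples. The lowest ArKI sample lay above the highest WT sample. The increase was 2.43-fold (log2 1.28 ± 0.18 SE, adjusted p = 0.00083), and it was the only member past the stricter limits that the study applied to the IS (a false discovery rate below 0.01 and a fold change above 2), which 4.04% of genes passed.

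*Lcn8*, the most abundant lipocalin of the IS, was at 12947, 13944, 13691, 14244 and 13310 CPM in WT and at 9208, 9384, 9891, 11367 and 9295 CPM in ArKI samples. All ArKI samples were below all WT samples, and ArKI replicate 4 was nearest to them. *Lcn8* fell by 27.6% (log2 -0.47 ± 0.057, adjusted p = 3.8e-06). *Lcn9* was at 9593, 10696, 9993, 10293 and 10288 CPM in WT and at 8751, 7069, 7474, 7976 and 7046 CPM in ArKI samples, again without overlap, and fell by 24.4% (log2 -0.40 ± 0.057, adjusted p = 2.2e-05). When IS and caput samples shared 1 estimate of the spread, the changes of both genes had the same size but no longer passed (adjusted p = 0.69 for *Lcn8* and 0.68 for *Lcn9*), because the caput spread of these genes, described below, then entered their error.

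The other 4 members did not pass in the IS. *Lcn10* had 2311 ± 71.8 CPM (SD, n = 5) in WT and 2446 ± 157 CPM in ArKI mice, a difference of 0.09 (95% interval -0.01 to 0.19, adjusted p = 0.19). *Lcn2* had 7970 ± 292 and 7504 ± 955 CPM (-0.08, interval -0.23 to 0.06, adjusted p = 0.41). *Lcn12* had 89.4 ± 34.4 and 148 ± 70.8 CPM (0.72, interval -0.18 to 1.62, adjusted p = 0.21), and *Lcn5* 83.4 ± 20.3 and 61.0 ± 19.6 CPM (-0.44, interval -1.02 to 0.13, adjusted p = 0.23). The intervals of *Lcn10* and *Lcn2* are narrow, while that of *Lcn12* reaches from below 0 to a change larger than that of *Lcn6*. As *Lcn6* and *Lcn10* are neighbours, their ratio was also taken within each sample: *Lcn6* to *Lcn10* was 0.174 ± 0.030 (SD, n = 5) in WT and 0.398 ± 0.061 in ArKI samples by CPM.

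Markers of several cell types also passed in the IS, where 15% of all genes rose and 14.6% fell, and their part in the lipocalin differences was not tested. The summed IS markers lay at 15711 to 18018 CPM in WT and 14377 to 16443 CPM in ArKI samples, and 3 of the 7 fell, among them *Rnase10*, an IS-restricted secreted RNase family gene (log2 -0.32). The 5 smooth muscle markers all fell, with sums of 545 to 630 CPM in WT and 235 to 421 CPM in ArKI samples. Of 4 efferent duct markers 2 rose (*Foxj1* and *Esr1*), with sums of 152 to 179 CPM in WT and 149 to 378 CPM in ArKI samples. Of 4 basal cell markers 3 fell, with sums of 337 to 386 CPM in WT and 266 to 293 CPM in ArKI samples, and of 7 macrophage markers 2 fell, with sums of 203 to 290 and 176 to 240 CPM. Both spermatid and sperm markers tested fell (*Prm2*, -4.11, and *Odf1*, -2.46), with sums over 6 markers of 7.63 to 52.0 CPM in WT and 1.27 to 4.06 CPM in ArKI samples. Of 6 caput principal cell markers 1 rose (*Adam7*, 0.48) and 1 fell (*Crisp1*, -2.58, 2087 CPM in WT against 348 CPM in ArKI mice). Of 4 clear cell markers 1 rose (*Atp6v1g3*, 0.49) and 1 fell (*Atp6v0d2*, -0.33). In bulk tissue, fewer cells of a type and less RNA per cell cannot be told apart.

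**Figure D3:**
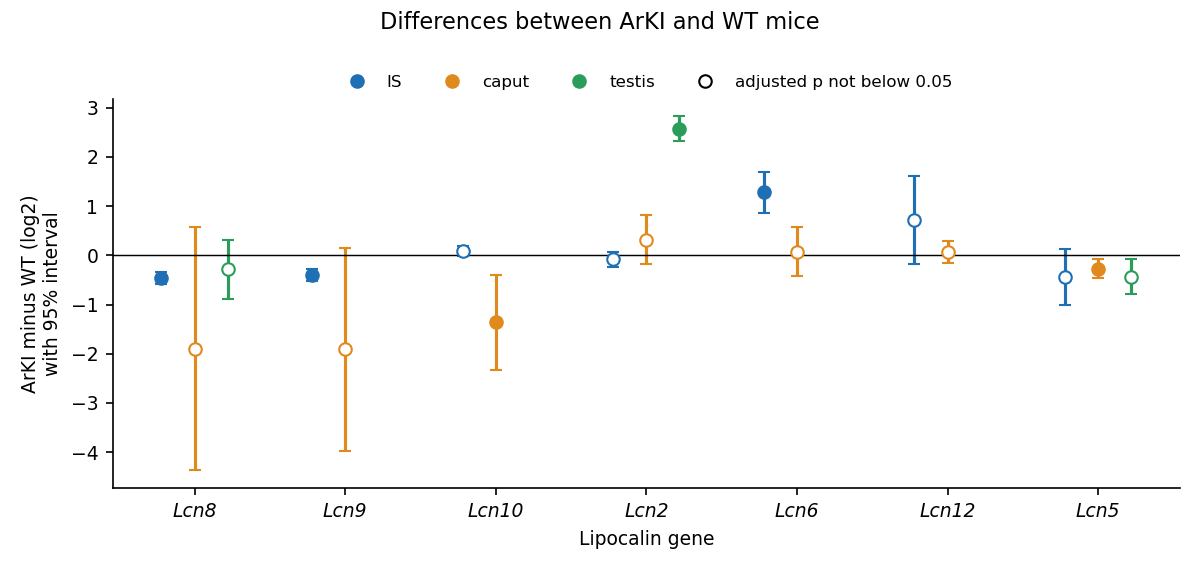
ArKI minus WT difference (log2) of each lipocalin in the IS, caput and testis, with 95% intervals; open points had an adjusted p not below 0.05, and members below the count filter in the testis have no point there. *Lcn2* in the testis (2.58) and *Lcn6* in the IS (1.28) are the increases that passed, and the intervals of *Lcn8* and *Lcn9* in the caput are the widest.

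In the caput, 2 of the 7 lipocalins passed, *Lcn5* and *Lcn10*, both lower in ArKI mice, where 27.7% of 13726 genes passed and 14% were lower. None of the 7 had groups without overlap in the caput, as 19.9% of all genes had, and none passed the study's stricter limits, which 4.98% of genes passed. *Lcn5*, the leading lipocalin of the caput, was at 17552, 14051, 15533, 14407 and 15797 CPM in WT and at 14017, 9775, 13183, 14265 and 12246 CPM in ArKI samples. ArKI replicate 2 was the lowest, and ArKI replicate 4 reached above the lowest WT sample. *Lcn5* fell by 17.1% (log2 -0.27 ± 0.088 SE, adjusted p = 0.033). This call was lost without WT replicate 1 (adjusted p = 0.082), WT replicate 3 (0.061), WT replicate 5 (0.068) or ArKI replicate 5 (0.075), without WT replicates 3 and 4 together (0.068), and without ArKI replicate 3 as well (0.086). It was also lost without a filter on low counts (0.085) and when IS and caput samples shared 1 fit (0.31).

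*Lcn10* was at 288, 570, 698, 778 and 380 CPM in the WT and at 146, 112, 409, 219 and 160 CPM in the ArKI caput samples. The highest WT samples were replicates 3 and 4 and the highest ArKI sample was replicate 3, which are the libraries with the highest IS marker sums. The difference was -1.36 ± 0.42 on the log2 scale (adjusted p = 0.043), a 2.57-fold decrease. With 1 library left out, it held without WT replicate 1 or without ArKI replicate 3. Without any 1 of the other 8 libraries (WT replicates 2, 3, 4 and 5, and ArKI replicates 1, 2, 4 and 5) the adjusted p was between 0.053 and 0.095, and without a filter on low counts it was 0.053. Without WT replicates 3 and 4 together the difference was -0.96 (adjusted p = 0.21), and without ArKI replicate 3 as well it was -1.35 (adjusted p = 0.037).

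*Lcn8* and *Lcn9* varied more between caput samples of 1 genotype than between genotypes. *Lcn8* was at 43.1, 127, 1084, 1156 and 202 CPM in WT and at 28.2, 66.5, 380, 166 and 52.6 CPM in ArKI samples. The WT values spanned 26.8-fold and the ArKI values 13.5-fold, with WT replicates 3 and 4 and ArKI replicate 3 at the top. *Lcn9* was highest in the same 3 libraries, at 1001 and 889 CPM in WT and at 329 CPM in ArKI mice, and its values spanned 13.6-fold and 10.6-fold. The differences between genotypes were -1.90 ± 1.08 for *Lcn8* (interval -4.37 to 0.57, adjusted p = 0.24) and -1.91 ± 0.90 for *Lcn9* (interval -3.98 to 0.16, adjusted p = 0.16). Without WT replicates 3 and 4 the difference of *Lcn8* was 0.19 (adjusted p = 0.92) and that of *Lcn9* -0.44 (adjusted p = 0.77). Without ArKI replicate 3 as well they were -0.62 (adjusted p = 0.66) and -1.16 (adjusted p = 0.32). When IS and caput samples shared 1 fit, *Lcn9* passed (-1.92, adjusted p = 0.034).

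Of the 7 IS markers, *Adam28* and *Rnase10* were highest in the same libraries, which were picked by a sum that includes both. *Ros1* varied little between the WT caput samples (286 to 324 CPM), and *Ggt1* and *Spink12* were lower in the IS than in the caput (log2 -3.28 and -4.57 in WT mice). As a share of the mean IS level of the genotype, caput *Lcn8* stood at 7.95% and 8.48% in WT replicates 3 and 4 and at 0.316% to 1.48% in the other WT samples. *Adam28*, a protease-family gene used as an IS marker, stood at 4.51% and 4.33% in these 2 samples and at 0.164% to 1.63% in the others, and *Rnase10* at 11.7% and 13.6% against 1.85% to 5.01%. In ArKI mice replicate 3 was highest for *Lcn8* (3.86%), *Lcn9* (4.29%), *Lcn10* (16.7%), *Adam28* (3.57%) and *Rnase10* (8.02%). Whether the share of IS tissue in these samples accounts for the spread was not tested. Between genotypes, 5 of 5 spermatid and sperm markers tested fell in the caput (median -3.09), where 14% of all genes fell, with sums of 156 to 250.01 CPM in WT and 19.8 to 60.3 CPM in ArKI samples. Of 3 efferent duct markers tested there 2 rose, where 27.7% of all genes passed in either direction, with sums of 46.9 to 60.6 and 82.1 to 95.3 CPM. Their part in the caput differences of the lipocalins was not tested.

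**Figure D4:**
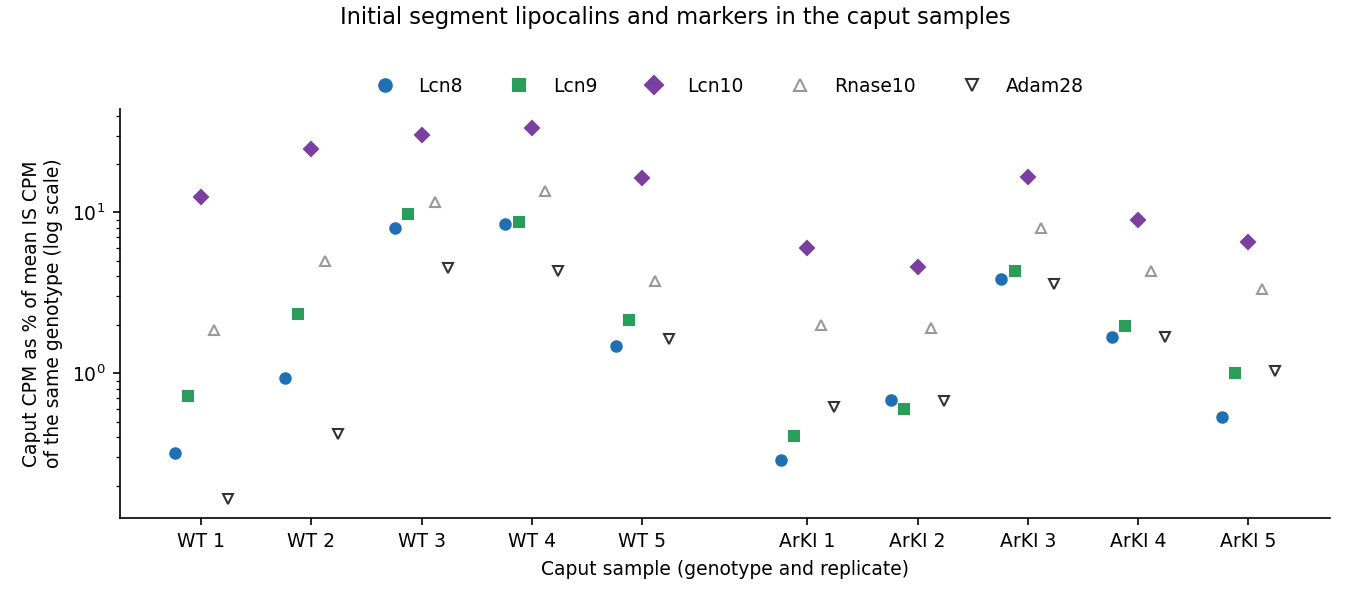
Caput level of *Lcn8*, *Lcn9*, *Lcn10* and of the IS markers *Rnase10* and *Adam28* in each caput sample, as a percentage of the mean IS level of the same genotype (log axis). All 5 genes are highest in ArKI replicate 3 among ArKI samples and in WT replicates 3 and 4 among WT samples.

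*Lcn2*, *Lcn6* and *Lcn12* did not pass in the caput. *Lcn2* had 2593 ± 751 CPM (SD, n = 5) in WT and 3200 ± 535 CPM in ArKI mice (0.32, interval -0.18 to 0.82, adjusted p = 0.33). It too was highest in WT replicates 3 and 4 and ArKI replicate 3, and the difference was 0.60 (adjusted p = 0.064) without the 2 WT libraries and 0.51 (adjusted p = 0.084) without all 3. The summed neutrophil markers were at 25.6 CPM in ArKI replicate 2 (24.5 CPM of it *Ltf*) and at or below 3.52 CPM in the other caput samples, while *Lcn2* in that replicate (3203 CPM) was the median of its group. *Lcn6* had 609 ± 118 and 634 ± 187 CPM (0.07, interval -0.43 to 0.57, adjusted p = 0.86), and *Lcn12* 783 ± 46.9 and 809 ± 148 CPM (0.06, interval -0.16 to 0.28, adjusted p = 0.71). The interval of *Lcn6* in the caput lies below its interval in the IS (0.87 to 1.69). The ratio of *Lcn6* to *Lcn10* was 1.21 ± 0.29 in WT and 3.33 ± 0.79 in ArKI caput samples, so that both segments had a higher ratio in ArKI mice. In the IS the higher ratio went with a change of *Lcn6*. In the caput it went with lower *Lcn10*, a call that was lost in 8 of 10 fits with 1 library left out.

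The difference between the segments in the response to the knock-in was tested by the interaction of segment and genotype. It passed for 2 of the 7 members, *Lcn6* and *Lcn10*, where 15.1% of 14329 genes passed (7.77% with the higher effect in the IS). For *Lcn6* the ArKI effect was higher in the IS than in the caput by 1.21 ± 0.29 on the log2 scale (adjusted p = 0.0082). For *Lcn10* it was higher by 1.45 ± 0.42 (adjusted p = 0.026), but the adjusted p was 0.052 without WT caput replicate 4 and 0.0502 without ArKI caput replicate 1, and 0.12 without WT caput replicates 3 and 4 (1.05). Without ArKI caput replicate 3 as well it was 1.45 ± 0.26 (adjusted p = 0.0022). With the replicate block, which takes an IS and a caput sample of the same number as 1 mouse, neither gene passed (*Lcn6* 1.24, adjusted p = 0.063; *Lcn10* 1.51, adjusted p = 0.059). The interaction of *Lcn2* was -0.40 ± 0.23 (adjusted p = 0.28) and passed without WT caput replicates 3 and 4 (-0.68, adjusted p = 0.025) and without ArKI caput replicate 3 as well (-0.58, adjusted p = 0.036). For *Lcn8* (1.44 ± 1.05, adjusted p = 0.41) and *Lcn9* (1.52 ± 0.88, adjusted p = 0.29) the 95% intervals were wide, at -0.79 to 3.66 and -0.35 to 3.39. Without WT caput replicates 3 and 4 these interactions were -0.65 and 0.05, and without all 3 libraries 0.18 and 0.78.

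In the testis, *Lcn2* rose 5.97-fold in ArKI mice and was the only member that passed. Its values were 180, 191 and 142 CPM in WT and 1151, 975 and 946 CPM in ArKI samples. The groups were far apart, with every ArKI sample above every WT sample. The log2 difference was 2.58 ± 0.11 SE (adjusted p = 2.2e-07). Of the 7 members 3 reached the count filter in the testis, and 1 of these 3 passed, where 1.96% of 15838 genes passed (1.64% higher). *Lcn2* also passed the limits the study used for the testis (a false discovery rate below 0.2 and a fold change above 2), as 0.833% of genes did. In RPKM, *Lcn2* in the ArKI testis ranked 18th of 18507 genes, against 331st in the WT testis.

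Other acute phase genes were higher with *Lcn2* in the testis. Of 18 listed acute phase and NF-kB genes 8 were tested there, 4 rose and none fell, where 1.64% of all genes rose. The median was 0.53 over the 8 against -0.0023 over all genes tested. *Lbp*, which binds lipopolysaccharide, rose 2.56-fold (22.2 ± 0.86 against 8.64 ± 0.89 CPM, SD, n = 3, adjusted p = 1.3e-08 by edgeR). The complement gene *C3* rose 2.16-fold (adjusted p = 2.2e-06), the metalloreductase gene *Steap4* 2.10-fold (adjusted p = 0.0017) and the ceruloplasmin gene *Cp* 1.79-fold (adjusted p = 8.1e-06). The other 4 genes tested did not pass, and 10 of the 18, cytokines and chemokines among them, were below the count filter. In the epididymis far more genes passed than in the testis, 29.6% in the IS and 27.7% in the caput in either direction. Of 7 acute phase genes tested in each segment, the same 4 rose in the IS and in the caput of ArKI mice, where *Lcn2* did not pass: *Cp* by 0.80 and 0.81, *C3* by 0.45 and 1.06, *Steap4* by 0.96 and 1.74, and *Lbp* by 0.35 and 0.58 on the log2 scale in IS and caput respectively. *Nfkbiz*, an NF-kB cofactor needed for *Lcn2* induction, fell by 0.45 in the caput. It did not pass in the IS (0.22, adjusted p = 0.15 by edgeR) or in the testis (0.22, adjusted p = 0.47). The part of *Nfkbiz* in the *Lcn2* values was not tested.

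**Figure D5:**
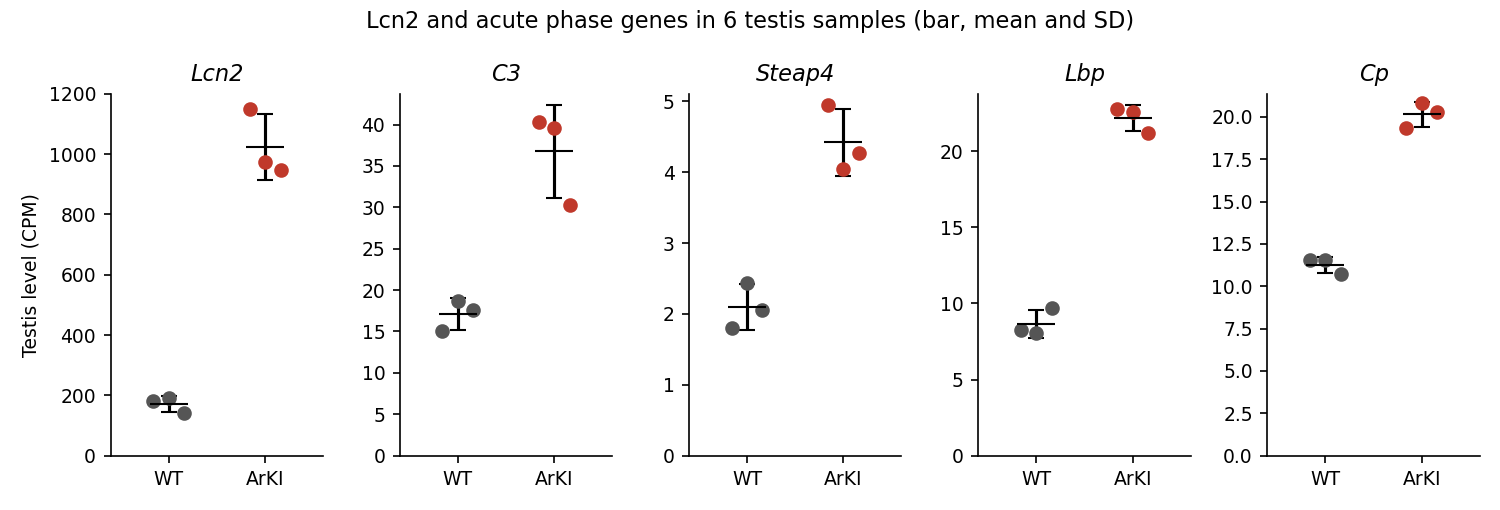
Testis level (CPM, axes from 0) of *Lcn2* and of the 4 acute phase genes that passed, in 3 WT and 3 ArKI samples, with mean and SD. The ArKI samples lie above the WT samples for each gene, and *Lcn2* shows the widest separation (142 to 191 against 946 to 1151 CPM).

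Markers of cells that could carry *Lcn2* were also read in the testis, where 1.64% of 15838 genes tested rose and 1.96% passed in either direction. Of 11 neutrophil markers 10 were in the tables and 1 reached the count filter (*Mpo*, 0.07, adjusted p = 0.90); their sum was 3.62 to 4.16 CPM in WT and 3.64 to 4.51 CPM in ArKI samples, and *Ngp* and *Retnlg* were at 0 in all ArKI samples. Of 7 macrophage markers 1 rose, *C1qb* (0.49), with sums of 83.7 to 85.8 CPM in WT and 93.7 to 100.2 CPM in ArKI samples and no marker at 0. Of 6 Leydig cell markers 2 rose, the steroidogenic genes *Cyp11a1* (0.92) and *Cyp17a1* (0.59), with sums of 538 to 745 CPM in WT and 896 to 968 CPM in ArKI samples and none at 0. Of 6 Sertoli cell markers none passed in edgeR's test, with sums of 1012 to 1056 CPM in WT and 984 to 1118 CPM in ArKI samples. The part of the macrophage and Leydig cell markers in the difference of *Lcn2* was not tested.

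The epididymal lipocalins were at trace levels in the testis. *Lcn5* was at 4.02, 4.30 and 4.12 CPM in WT and at 3.01, 2.64 and 3.64 CPM in ArKI samples. These 3 against 3 values did not overlap, as was so for 17.8% of all genes, and the difference of -0.43 ± 0.17 did not pass (adjusted p = 0.27). The summed caput markers differed in the same direction in these samples, at 56.2 to 61.3 CPM in WT and 36.9 to 44.5 CPM in ArKI mice, with no marker at 0. Of 4 caput markers tested 1 fell (*Gpx5*, -0.54), where 1.96% of all genes passed in either direction. The part of these markers in the *Lcn5* values was not tested. *Lcn8* had 20 to 31 counts in WT and 22 to 32 in ArKI samples (-0.28 ± 0.29, adjusted p = 0.74). *Lcn6* had 4 to 10 counts, *Lcn12* 0 to 6, *Lcn9* 0 to 3 and *Lcn10* 0 or 1, all below the filter, and exact permutation tests (2-sided) gave p = 0.2, 0.2, 0.9 and 1, where 3 against 3 samples cannot go below 0.1.

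Of 29 other lipocalin genes listed, 23 were in the tables. In the IS 8 were tested, 4 fell and none rose, where 14.6% of all genes fell. *Apod*, encoding the lipid carrier apolipoprotein D, fell by 1.65 on the log2 scale (453 CPM in WT against 144 CPM in ArKI mice), *Ptgds*, the lipocalin-type prostaglandin D synthase, by 1.14, *Lcn14* by 0.86 and *Lcn13* by 0.62. In the caput, where 14% of all genes fell, 6 were tested and 2 fell, *Apod* by 2.82 (254 against 35.7 CPM) and *Ptgds* by 2.21 (1842 against 395 CPM). In the testis none of the 5 tested passed in edgeR's test. The median over those tested was -0.59 in the IS, -1.04 in the caput and 0.10 in the testis, against medians within 0.01 of 0 over all genes. *Lcn13* and *Lcn14* lie in the same cluster as the epididymal members and, like *Lcn8*, were higher in the IS than in the caput of WT mice (2.12 and 4.58).

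Receptors that take up lipocalins were read alongside. Of 6 listed, 4 were tested in the IS, 2 rose and 1 fell, where 29.6% of all genes passed. *Lrp2*, which encodes the endocytic receptor megalin, rose by 1.43 ± 0.39 in the IS (adjusted p = 0.027) and was at 0.23 in the caput (adjusted p = 0.37). Its IS samples overlapped, at 33.4 to 61.1 CPM in WT and 50.9 to 223 CPM in ArKI mice. *Slc22a17*, encoding a receptor of Lcn2, rose by 0.19 in the IS and 0.23 in the caput, and *Stra6*, encoding the receptor of the retinol-binding lipocalin Rbp4, fell by 0.84 and 2.24. None of the 5 receptors tested in the testis passed in edgeR's test.

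Factors linked to epididymal lipocalin promoters or to the IS epithelium were read as well. *Etv4* and *Etv5*, which encode PEA3-type ETS factors, were higher in the IS than in the caput of WT mice by 5.57 and 3.97 on the log2 scale. In the IS of ArKI mice *Etv4* fell by 0.40 and *Etv5* by 0.20. In the caput *Ros1*, a receptor tyrosine kinase gene needed for IS differentiation, rose by 0.36. In the testis none of these named genes passed in edgeR's test, with log2 fold changes, ArKI over WT, of 0.60 for *Etv4*, -0.07 for *Etv5* and -0.11 for *Ros1* (adjusted p = 0.609, 0.833 and 0.875).

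Genes around the members were read in the same tables. Of 31 RefSeq neighbours within 50 kb of a member, 21 were in the tables. In the IS 16 were tested, 1 rose and 6 fell, where 29.6% of all genes passed. Those that fell include *Ptgds*, *Lcn13* and *Lcn14* in the IS and *Ptgds* in the caput, already counted above among the other lipocalin genes. In the caput 15 were tested, 2 rose and 4 fell, where 27.7% of all genes passed, and in the testis none of 15 passed in edgeR's test. The neighbour that rose in the IS, the potassium channel gene *Kcnt1* (chr2:25863791-25918273), rose by 1.07 and did not pass in the caput (-0.12), with an interaction of 1.20. It was named after its values were seen.

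The 3 genes whose log2(CPM + 0.5) was most like each member across the 20 epididymal samples are given as a description, since those samples fall into 2 segments and share their libraries. Among 9955 genes, *Lcn8* and *Lcn9* were both closest to *Cst8*, an epididymal cystatin gene (r = 0.998 and 0.997), and to each other (0.995), with *Gm3428* next for *Lcn8* (0.994) and *Rnase10* for *Lcn9* (0.996). *Lcn10* was closest to *Slc1a1* (0.991), *Cd63* (0.990) and *Ddit4l* (0.989), and *Lcn2* to *Hgfac* (0.991), *Cldn10* (0.980) and *Ggt7* (0.979). *Lcn5* was closest to *Gamt* (0.998), *0910001L09Rik* (0.997) and *Ntsr2* (0.997), and *Lcn12* to *Foxi1*, *Kcnmb4* (both 0.992) and *P2rx2* (0.990). *Lcn6* stood apart, with *Tspan7* (0.881), *2610203C20Rik* (0.873) and *Creg1* (0.871) as its closest genes, and its correlation with the other 6 members lay between -0.04 and 0.20.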

How the data were processed

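The deposited tables hold raw read counts per gene, 1 column per sample, and no column belonged to another series. The authors sequenced single-end reads, aligned them to mm10 with STAR and counted uniquely mapped reads per RefSeq gene (Subread 1.5.1 per the labels). The labels name an unstranded kit and the methods a stranded one, so strand use is unknown. Groups followed the labels. Per the methods, IS and caput came from 5 ArKI and 5 WT mice and testes from 3 of each, with WT littermates, which reads as both segments from the same mice; the sources do not say that equal sample numbers mark 1 mouse, and the fits reported first treat all samples as independent. Counts were tested with edgeR 4.0.16 (robust quasi-likelihood, TMM, filterByExpr with a minimum count of 10, Benjamini-Hochberg over all genes tested), per tissue for genotype and in 1 fit of 4 epididymal groups for segment and interaction. The study's own test (ROTS) was not rerun. CPM was TMM-scaled within the epididymis or testis, and RPKM over 26 samples with exon lengths of GENCODE transcripts. The fit was tested on simulated data. The genes named were the 7 members, up to 6 genes per list and contrast that passed with the lowest adjusted p, and the 3 genes most correlated with each member, besides cell markers. Members and lists were chosen with earlier results of these data known. Library totals (4125768 to 21376604 counts) limit the low values: 3 counts correspond to 0.14 to 0.73 CPM. Alternatives covered scaling (library size, DESeq2 1.42.0 size factors), filters, limma 3.58.1, the replicate block, left-out samples and the study's limits. The result of 1 listed factor is not reported here.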

Additional observations from a re-analysis of the deposited data

Results flagged for a closer look

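*Lcn10* in the IS of WT mice had 1 sample apart from the others: replicate 3 was at 2186 CPM, and the other 4 lay between 2322 and 2366 CPM. The gap took 0.753 of the range, in the only 1 of 28 groups of member values that exceeded the 95% critical value, where chance gives about 1.4. *Lcn6* responded differently to the knock-in in the IS and the caput, with an interaction of 1.21 ± 0.29 on the log2 scale (adjusted p = 0.0082 in edgeR's quasi-likelihood test, and 0.063 with the replicate block). It was the rise in the IS, with all 5 ArKI samples above all 5 WT samples, that set the segments apart. *Lcn10* also responded differently, by 1.45 ± 0.42 (adjusted p = 0.026), with a fall in the caput and no call in the IS, and it was 1.05 (adjusted p = 0.12) without WT caput replicates 3 and 4, 1.45 (adjusted p = 0.0022) without ArKI caput replicate 3 as well, and 1.51 (adjusted p = 0.059) with the replicate block.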

How the results depend on the processing

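Of 956 values of single members under alternatives, 911 kept their direction and call, 33 lost the call, 6 gained it and 6 changed sign. The counts of members that passed moved as follows. In the IS (3) it was 1 under the study's limits and 1 when IS and caput shared a fit; in the caput that fit kept the count at 2, with *Lcn9* gained (adjusted p = 0.034) and *Lcn5* lost (0.31). In the caput (2) it was 0 without a filter on low counts, 0 under the study's limits, 0 to 2 when 1 sample was left out, 0 without WT replicates 3 and 4, and 1 without ArKI replicate 3 as well. For the interaction (2) it was 1 to 2 when 1 sample was left out, 2 without WT caput replicates 3 and 4 (*Lcn2* gained, *Lcn10* lost) and 3 without ArKI caput replicate 3 as well (*Lcn2* gained). Between segments in WT mice (7) it was 6 without these libraries, as *Lcn6* was lost. Values that changed sign were small or had wide errors. In the caput, *Lcn6* ranged from -0.067 to 0.19 and *Lcn12* from -0.0053 to 0.16 when 1 sample was left out, with *Lcn6* below 0 without WT replicate 1 (-0.012) or ArKI replicate 3 and *Lcn12* without ArKI replicate 3, and *Lcn12* was -0.022 without WT replicates 3 and 4 and ArKI replicate 3. *Lcn8* was 0.19 in the caput and -0.65 in the interaction without WT caput replicates 3 and 4. The causes were not tested.

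The deviations of samples with the same replicate number correlated over 0.1 in some pairs but in no comparison in all: in 0 of 3 pairs in the testis and in 2 of 5 (IS) and 3 of 5 (caput) pairs between genotypes, and between IS and caput in 3 of 5 pairs in WT (up to 0.18) and 1 of 5 in ArKI mice (up to 0.21). Of these IS samples, 3 of 5 in WT and 2 of 5 in ArKI correlated best with the caput sample of their own number. Between genotypes the block joins samples of different mice that share only a number. With the replicate block, 4 members passed in the caput (*Lcn2*, adjusted p = 0.018, and *Lcn9*, 0.0065, were gained) and 0 in the interaction (*Lcn6* 0.063, *Lcn10* 0.059), and *Lcn6* no longer passed between segments (0.082 in WT, 0.058 in ArKI). The block changed no other call. DESeq2 gave no adjusted p for *Lcn8* and *Lcn9* between segments. *Lcn10* in the IS passed with library size scaling only (0.11, adjusted p = 0.048). The few samples per group and, in the testis, counts of 0 to 10 limit what could be detected for the other members there. Levels across tissues depended on the scaling: *Lcn2* in the ArKI testis was at 1119 RPKM with TMM within each tissue and at 1125 RPKM with library size only.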
